A study of Homo sapiens with 12 samples.

Results

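Toll-like receptor signalling in B cells was followed through 9 genes: the receptors TLR1, TLR7, TLR9 and TLR10, the receptor-like protein CD180, the receptor chaperone UNC93B1, the adaptor MYD88 and the kinases IRAK4 and IRAK1. The genes were taken by symbol from the 20318 gene entries of the deposited expression table, in which each had 1 entry, and all 9 were among the 12721 entries tested. Symbols were chosen for their place in the pathway and with earlier results of these data known. The cells were Z138, a human mantle cell lymphoma line that the labels list as lymphoblast and wild type. Z138 is a single line, so the data describe that line.

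The groups were AU-15330 (0.5 µM) for 8 h (n = 3), DMSO, its vehicle, for 8 h (n = 2), AU-15330 (0.5 µM) for 24 h (n = 3) and DMSO for 24 h (n = 3). AU-15330 is a degrader of the proteins SMARCA2, SMARCA4 and PBRM1, which are parts of the BAF and PBAF chromatin remodelling complexes. It acts on protein, and no protein was measured. At 8 h, a pair of DMSO samples pointed to the same library and its column was present as an identical copy, so that library was counted once and is called the second DMSO library. The labels give 8 h and 24 h as separate batches, so time and batch cannot be told apart, while each AU-15330 group had DMSO libraries of its own batch. The labels do not say that replicates were separate cultures, so p-values cover the spread among the libraries alone, and this may be technical. Estimated totals were 50763540 to 67573110 counts per library. Of 9 B cell marker genes fixed for this check, all were measured, and they summed to 624 to 675 CPM (normalised counts scaled to a common library total) in AU-15330 and 1240 to 1280 CPM in DMSO at 8 h. At 24 h they summed to 527 to 554 CPM in AU-15330 and 1562 to 1585 CPM in DMSO. CCND1, the cyclin gene translocated in mantle cell lymphoma, averaged 164900 ± 3830 normalised counts in AU-15330 and 166500 ± 1830 in DMSO at 24 h (SD, n = 3 each). CD5, a surface marker of most such lymphomas, averaged 1.4 and 1.0 normalised counts in the same groups, so that marker was near 0. SOX11, a transcription factor of most mantle cell lymphomas, rose at 24 h, with 11310 ± 373 normalised counts in AU-15330 and 5057 ± 367 in DMSO, a log2 fold change of 1.15 ± 0.078 (adjusted p = 2.1e-07).

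Toll-like receptors recognise microbial molecules. TLR7 and TLR9 sit in endosomes and bind RNA and unmethylated CpG DNA, and the membrane protein UNC93B1 carries them there from the endoplasmic reticulum. TLR1 acts at the cell surface in a pair with TLR2, and TLR10, a close relative encoded beside it, is found mainly in B cells. CD180 (RP105) resembles a Toll-like receptor outside the cell but lacks the signalling domain inside it, and it reaches the surface with the secreted partner MD-1, encoded by LY86. Once a receptor is engaged, MYD88 binds its intracellular domain and assembles IRAK4 and IRAK1, from which the signal passes through TRAF6 to NF-kappaB. B cells use TLR7 and TLR9 to respond to nucleic acids alongside their antigen receptor, and MYD88 is mutated in several B cell lymphomas.

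Start regions are shown for 3 genes that were lower under AU-15330, to let their sequences be compared beside the expression values. RefSeq sequences on GRCh38.p14 were at hand for 5 of the 9 genes (MYD88, IRAK4, IRAK1, TLR9 and CD180), and the 250 bases before the annotated start are printed 5′ to 3′ on the strand of the gene. These starts are RefSeq's, and for MYD88 and TLR9 they lie inside the wider GENCODE 29 gene spans given with the values, so part of the MYD88 region and all of the TLR9 region fall within those spans. They lie at chr3:38138411-38138660 on the plus strand for MYD88, at chr3:52225646-52225895 on the minus strand for TLR9 and at chr5:67196800-67197049 on the minus strand for CD180. Capitals mark matches to 4 motifs searched on both strands: GAGGAA (the ETS type bound by PU.1), ATGCAAAT (the octamer), GAAANNGAAA (interferon response) and GGGANNNNCC (NF-kappaB).
MYD88: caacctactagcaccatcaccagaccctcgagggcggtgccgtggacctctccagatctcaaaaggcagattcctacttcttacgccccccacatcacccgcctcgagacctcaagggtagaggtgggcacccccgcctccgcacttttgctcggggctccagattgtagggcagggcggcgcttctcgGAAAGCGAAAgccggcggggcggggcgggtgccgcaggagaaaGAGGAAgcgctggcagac
TLR9: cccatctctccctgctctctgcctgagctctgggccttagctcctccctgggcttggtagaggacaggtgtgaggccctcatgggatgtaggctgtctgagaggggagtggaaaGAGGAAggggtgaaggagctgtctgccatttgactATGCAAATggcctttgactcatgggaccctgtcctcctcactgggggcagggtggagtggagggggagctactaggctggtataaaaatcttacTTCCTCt
CD180: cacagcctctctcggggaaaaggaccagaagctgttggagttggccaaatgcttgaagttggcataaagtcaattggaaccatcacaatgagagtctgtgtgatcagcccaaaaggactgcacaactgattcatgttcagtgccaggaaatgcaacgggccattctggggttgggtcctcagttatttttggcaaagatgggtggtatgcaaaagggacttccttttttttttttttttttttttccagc
The MYD88 region held an interferon response match GAAAGCGAAA that began 61 bases before the start and a GAGGAA match 18 bases before it. The TLR9 region held GAGGAA at 136 bases, ATGCAAAT at 101 bases and the reverse complement TTCCTC at 7 bases before the start. No such letters were found in the CD180 region. Of the regions at hand but not printed, that of IRAK1 held 2 NF-kappaB matches, at 211 and 130 bases before the start, and that of IRAK4 held none. Of 35116 start regions of the same length, 23.6% held GAGGAA, 22.6% the NF-kappaB motif, 3.02% the interferon response motif and 1.63% the octamer. The motifs were chosen after the expression values were seen, and a match is a description of letters only.

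At 8 h, 5 of the 9 genes fell under AU-15330 (TLR7, TLR9, CD180, UNC93B1 and MYD88), 1 rose (TLR10), and TLR1, IRAK1 and IRAK4 did not pass the test. At 24 h, 7 fell (the same 5 genes with IRAK1 and IRAK4), TLR10 rose, and TLR1 did not pass. These counts, and the medians of the 9 genes, take the TLR9 entry as deposited. Most of its sequence is shared with the overlapping entry AC097637.1, so its change cannot be assigned to TLR9 itself. Across all tested entries, 44.2% passed the test at 8 h and 50.9% did at 24 h, with 21.4% and 26.2% called lower and 22.9% and 24.7% called higher. The 9 genes had a median log2 fold change of -0.34 at 8 h and -0.41 at 24 h, while the median over all tested genes was 0.02 and 0.01. These folds are AU-15330 over DMSO on log2(normalised count + 60), with 60 added because 1 CPM corresponds to 59.4 normalised counts, and they understate the change of genes with low counts. The error after a mean is the SD over the libraries of its group, and that after a fold change is the SE. Adjusted p-values come from limma on the deposited scale with Benjamini-Hochberg adjustment over all 12721 entries, and 0.05 was the threshold. The libraries of the treatments did not overlap for 6 of the 9 genes at 8 h and for 9 of 9 at 24 h, against 62.5% and 59% of all tested genes. A test needed at least 1 CPM in at least 3 libraries. For 7 of the 9 genes all 11 libraries met that level, whereas TLR9 met it in 0 of 6 AU-15330 libraries and 5 of 5 DMSO libraries, and CD180 in 1 of 6 and 5 of 5, so both entered the test through DMSO. In bulk RNA, fewer cells that express a gene and less RNA per cell cannot be told apart.

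**Figure D1:**
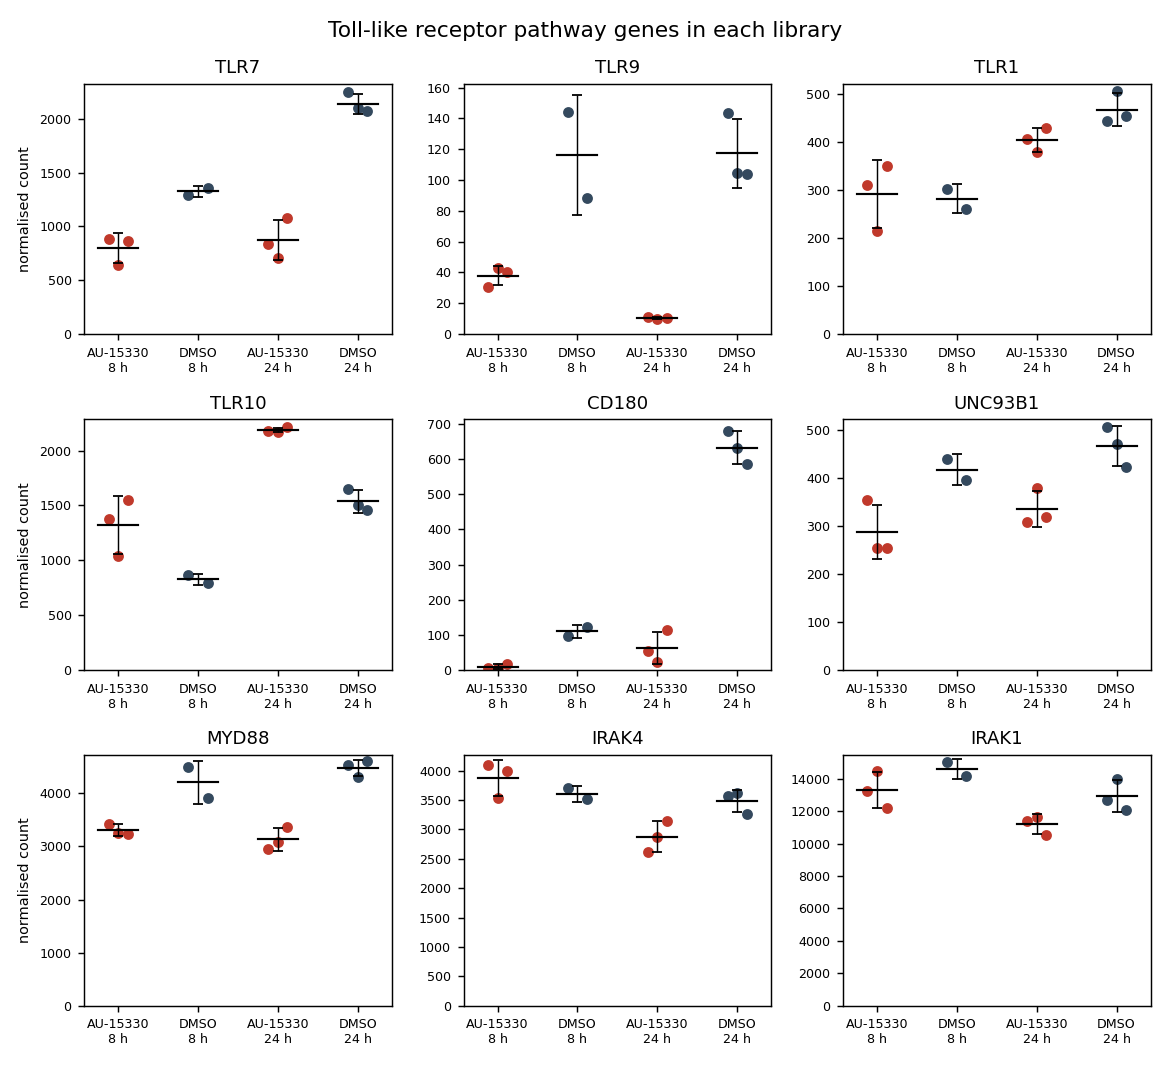
Normalised counts (y axis, linear, from 0) of the 9 genes in each of the 11 libraries (points) by group (x axis), with the group mean and SD. At 24 h the AU-15330 and DMSO points do not overlap for any of the 9 genes, and AU-15330 lies above DMSO for TLR10 and below it for the other 8.

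TLR7, the endosomal sensor of single-stranded RNA (chromosome X, 12867083 to 12890380, GENCODE 29 on GRCh38), fell at both times. It had 884.9, 639.2 and 867.5 normalised counts in AU-15330 libraries at 8 h, against 1290.6 and 1359.3 in DMSO libraries. At 24 h it had 834.2, 705.5 and 1075.5 normalised counts in AU-15330 libraries, against 2244.7, 2099.9 and 2071.3 in DMSO libraries. The groups did not overlap at either time, and the highest AU-15330 library was below the lowest DMSO library of its own time. The log2 fold change was -0.70 ± 0.158 at 8 h (SE, adjusted p = 0.00282) and -1.26 ± 0.141 at 24 h (adjusted p = 6.23e-06). In DMSO, TLR7 was higher at 24 h, where it averaged 2139 ± 93.0 normalised counts (SD, n = 3), than at 8 h, where it averaged 1325 ± 48.6 (SD, n = 2). That difference was 0.67 ± 0.158 on the log2 scale (adjusted p = 0.00724), and its adjusted p was 0.0587 without DMSO replicate 1 at 8 h. In AU-15330 libraries the means were 871.8 ± 188 at 24 h and 797.2 ± 137 at 8 h (SD, n = 3 each).

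TLR9, the endosomal sensor of CpG DNA (chromosome 3, 52221080 to 52226163), had low counts in every group and its lowest counts under AU-15330 at 24 h. It had 30.7, 42.6 and 40.5 normalised counts in AU-15330 libraries at 8 h, against 143.8 and 88.5 in DMSO libraries. After 24 h it had 11.4, 9.9 and 10.2 in AU-15330 libraries, against 143.3, 104.7 and 103.9 in DMSO libraries. The groups did not overlap at either time. The ratio of means was 3.06-fold lower at 8 h and 11.2-fold lower at 24 h in AU-15330 than in DMSO. On log2(normalised count + 60) the change was -0.83 ± 0.152 at 8 h (adjusted p = 0.00114) and -1.32 ± 0.136 at 24 h (adjusted p = 8.29e-06). With a pseudocount of 3, added after seeing the data, it was -1.51 ± 0.286 and -3.14 ± 0.256, with limma adjusted p-values on that scale of 0.00133 and 1.8e-06.

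The TLR9 entry could not be counted apart from its neighbour. An overlapping protein-coding entry that GENCODE 29 names AC097637.1 (chromosome 3, 52221081 to 52231190, minus strand) shares 3341 exon bases with TLR9 and 463 with TWF2, an actin-binding protein gene beside it. Of all 50-base words in protein-coding TLR9 transcripts, 84.9% also occur in AC097637.1 transcripts, and of the words in AC097637.1, 87.3% occur in TLR9 and 11.4% in TWF2. AC097637.1 had 1692.1, 1888.0 and 1671.2 normalised counts in AU-15330 libraries at 8 h, against 2073.2 and 1653.1 in DMSO libraries. By 24 h the gene had 630.4, 425.0 and 658.6 in AU-15330 libraries, against 1636.4, 1429.4 and 1464.7 in DMSO libraries. The groups overlapped at 8 h and were apart at 24 h, with log2 fold changes of -0.08 ± 0.155 (adjusted p = 0.613) and -1.33 ± 0.139 (adjusted p = 1.06e-05).

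The counts of TLR9 and AC097637.1 were also summed, an alternative chosen after the data were seen. The sum was called lower at 24 h and not at 8 h. TLR9 averaged 10.5 normalised counts in AU-15330 and 117.3 in DMSO at 24 h, and AC097637.1 averaged 571.3 and 1510. The sum therefore follows AC097637.1 and cannot show whether TLR9 itself changed. The sum averaged 1788.4 ± 123.3 normalised counts in AU-15330 (SD, n = 3) and 1979.3 ± 336.2 in DMSO (SD, n = 2) at 8 h, a log2 fold change of -0.13 ± 0.157 with a 95% interval from -0.48 to 0.21 (adjusted p = 0.401). At 24 h it averaged 581.8 ± 128 in AU-15330 and 1627.5 ± 133 in DMSO (SD, n = 3 each), a change of -1.41 ± 0.14 (adjusted p = 7.7e-06). TWF2 was also lower at 24 h, at 2961.0, 2877.2 and 2712.2 normalised counts in AU-15330 libraries against 4634.0, 4221.2 and 4546.0 in DMSO libraries. At 8 h it was higher, at 6204.0, 5923.9 and 6000.9 in AU-15330 libraries against 5074.0 and 4989.2 in DMSO libraries. Its log2 fold changes were 0.26 ± 0.0527 at 8 h (adjusted p = 0.00121) and -0.64 ± 0.0471 at 24 h (adjusted p = 9.45e-07). How reads of the shared bases were divided among these entries was not tested.

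**Figure D2:**
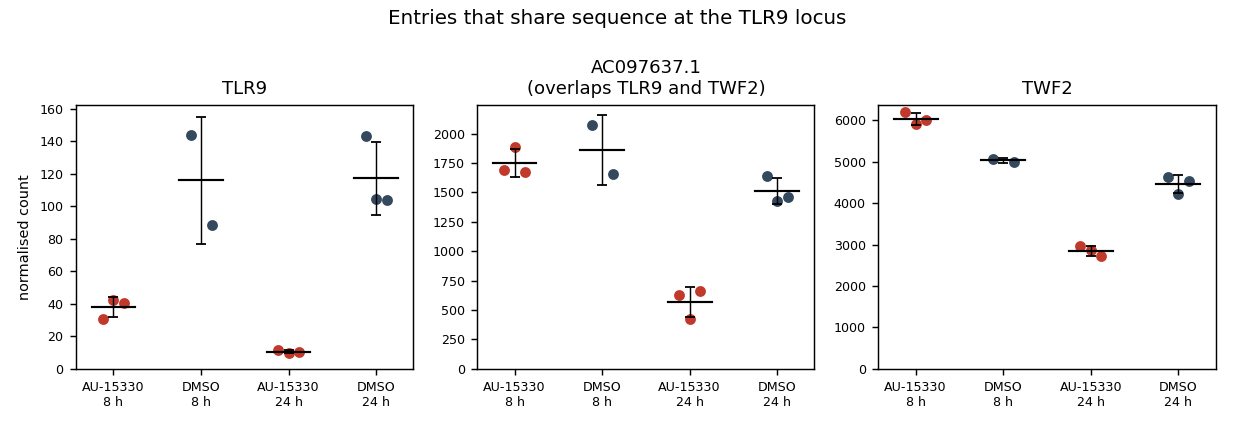
Normalised counts (y axis, linear, from 0, a scale of its own in each panel) of TLR9, the overlapping entry AC097637.1 and the neighbour TWF2 in each library, by group (x axis), with mean and SD. At 24 h AU-15330 lies below DMSO in all 3 panels, while at 8 h it lies below DMSO for TLR9, overlaps it for AC097637.1 and lies above it for TWF2.

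TLR10 rose under AU-15330 at both times and was the only one of the 9 genes to rise. TLR10 (chromosome 4, 38772239 to 38782990) had 1378.2, 1037.3 and 1548.1 normalised counts in AU-15330 libraries at 8 h, against 864.2 and 792.5 in DMSO libraries. Its 24 h values were 2180.2, 2170.6 and 2211.8 in AU-15330 libraries, against 1649.5, 1503.4 and 1455.8 in DMSO libraries. All AU-15330 libraries lay above the DMSO libraries of the same time. The log2 fold change was 0.62 ± 0.128 at 8 h (adjusted p = 0.00339) and 0.50 ± 0.115 at 24 h (adjusted p = 0.00172). In DMSO it was also higher at 24 h than at 8 h, by 0.84 ± 0.128 on the log2 scale (adjusted p = 0.00272).

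TLR1, the partner of TLR2 for bacterial lipopeptides (chromosome 4, 38790677 to 38856817), did not pass the test at either time. It had 309.9, 214.1 and 349.7 normalised counts in AU-15330 libraries at 8 h, against 302.2 and 259.7 in DMSO libraries, and the groups overlapped. At 24 h it had 405.8, 378.1 and 428.1 in AU-15330 libraries, against 442.2, 506.0 and 452.3 in DMSO libraries, so the groups were just apart. The log2 fold change was 0.03 at 8 h (95% interval -0.31 to 0.36, adjusted p = 0.887) and -0.18 at 24 h (95% interval -0.48 to 0.11, adjusted p = 0.234). TLR6, which also pairs with TLR2, shares 57 exon bases with TLR1 in the annotation, and 6.94% of the 50-base words of TLR1 occur in it. TLR6 had 327.5, 518.7 and 549.1 normalised counts in AU-15330 libraries at 8 h, against 472.4 and 389.8 in DMSO libraries, and at 24 h 589.6, 599.6 and 668.0 against 438.4, 595.9 and 455.2. Its log2 fold changes of 0.07 at 8 h (adjusted p = 0.75) and 0.30 at 24 h (adjusted p = 0.141) did not pass. TLR1 differed between the times in DMSO, with 466.8 ± 34.3 normalised counts at 24 h (SD, n = 3) and 281.0 ± 30.1 at 8 h (SD, n = 2), a log2 difference of 0.63 ± 0.151 (adjusted p = 0.0185). The adjusted p of that difference was 0.0571 without DMSO replicate 1 at 8 h, 0.132 without the second DMSO library at 8 h and 0.0622 without DMSO replicate 2 at 24 h.

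CD180 was lower in AU-15330 than in DMSO by the largest ratio of means among the 9 genes at 8 h, and LY86, the gene of its partner MD-1, fell with it. CD180 (chromosome 5, 67179613 to 67196799) had 5.7, 5.7 and 16.8 normalised counts in AU-15330 libraries at 8 h, against 97.3 and 121.8 in DMSO libraries. After 24 h it had 54.0, 22.9 and 112.6 in AU-15330 libraries, against 678.9, 632.3 and 587.2 in DMSO libraries. The groups were far apart at both times, and AU-15330 replicate 3 was the highest of its group at each. The ratio of means was 11.6-fold lower at 8 h and 10.0-fold lower at 24 h in AU-15330 than in DMSO. On log2(normalised count + 60) the change was -1.29 ± 0.237 at 8 h (adjusted p = 0.00104) and -2.56 ± 0.212 at 24 h (adjusted p = 5.23e-07). With a pseudocount of 3 it was -3.29 ± 0.531 and -3.52 ± 0.475, with adjusted p-values of 0.000465 and 9.56e-05.

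CD180 was higher at 24 h than at 8 h in both treatments. In AU-15330 the mean was 63.15 ± 45.6 normalised counts at 24 h and 9.41 ± 6.38 at 8 h (SD, n = 3 each), a ratio of 6.71. In DMSO it was 632.8 ± 45.8 at 24 h (SD, n = 3) and 109.5 ± 17.3 at 8 h (SD, n = 2), a ratio of 5.78, and the log2 difference of 2.03 ± 0.237 passed the test (adjusted p = 9e-05). LY86 (chromosome 6, 6588108 to 6654983) had 819.8, 677.5 and 828.4 normalised counts in AU-15330 libraries at 8 h, against 1744.2 and 1710.3 in DMSO libraries. By 24 h the gene had 152.2, 151.7 and 162.8 in AU-15330 libraries, against 1698.5, 1569.2 and 1655.8 in DMSO libraries. LY86 was lower in each AU-15330 library than in any DMSO library, and unlike CD180 its DMSO level did not pass the test between the times (log2 difference -0.07, adjusted p = 0.567). Its log2 fold change was -1.10 ± 0.0899 at 8 h (adjusted p = 8.58e-07) and -2.98 ± 0.0804 at 24 h (adjusted p = 5.07e-10).

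**Figure D3:**
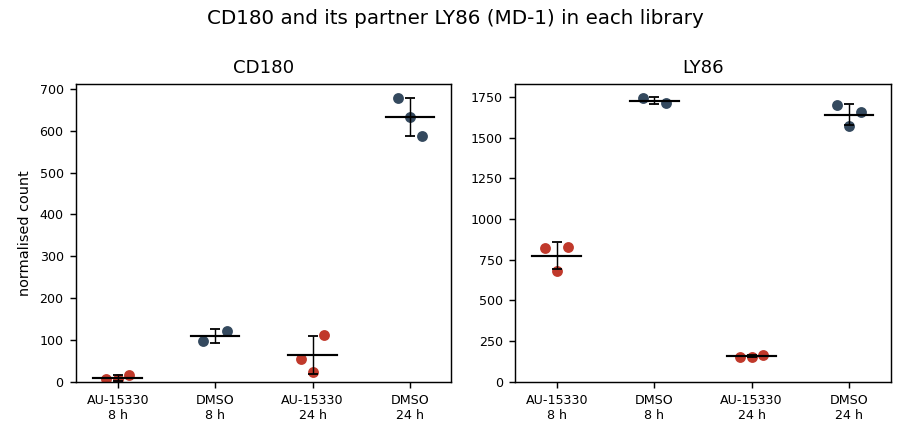
Normalised counts (y axis, linear, from 0, a scale of its own in each panel) of CD180 and of LY86, which encodes its partner MD-1, in each library by group (x axis), with mean and SD. CD180 is below DMSO at each time in AU-15330 and higher at 24 h than at 8 h in both treatments, while LY86 lies between 1569.2 and 1744.2 in DMSO at both times and between 151.7 and 162.8 in AU-15330 at 24 h.

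UNC93B1, the chaperone that TLR7 and TLR9 need to reach endosomes (chromosome 11, 67991104 to 68004982), fell to 68.9% of its DMSO mean at 8 h and to 71.9% at 24 h. It had 353.7, 254.9 and 255.0 normalised counts in AU-15330 libraries at 8 h, against 440.5 and 395.5 in DMSO libraries. Its 24 h values were 309.3, 378.9 and 318.5 in AU-15330 libraries, against 506.3, 470.8 and 423.0 in DMSO libraries. The groups were apart at both times. The log2 fold change was -0.47 ± 0.137 at 8 h (adjusted p = 0.0174) and -0.41 ± 0.122 at 24 h (adjusted p = 0.0122). The 8 h call did not hold under quantile normalisation (adjusted p = 0.0678), without DMSO replicate 1 (0.117), without AU-15330 replicate 2 (0.0552) or without AU-15330 replicate 3 (0.0559). Of its 50-base words, 11.8% occur in other annotated genes, with its pseudogene copies sharing the most. Summed with the 3 copies that have entries in the table (UNC93B2, UNC93B5 and UNC93B6), it averaged 323.7 ± 52.6 in AU-15330 and 494.6 ± 1.6 in DMSO at 8 h, and 353.6 ± 43.5 in AU-15330 and 570.6 ± 45.9 in DMSO at 24 h. The summed change was -0.54 ± 0.125 (adjusted p = 0.00461) and -0.61 ± 0.112 (adjusted p = 0.000612).

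MYD88, the adaptor shared by all human Toll-like receptors except TLR3 (chromosome 3, 38138478 to 38143022), fell at both times. It had 3431.6, 3250.0 and 3242.3 normalised counts in AU-15330 libraries at 8 h, against 4496.4 and 3919.3 in DMSO libraries. At 24 h it had 2952.7, 3089.3 and 3375.6 in AU-15330 libraries, against 4528.3, 4311.3 and 4602.5 in DMSO libraries. No AU-15330 library reached the lowest DMSO library at either time. MYD88 was at 78.6% of its DMSO mean at 8 h and 70.1% at 24 h, with log2 fold changes of -0.34 ± 0.0698 (adjusted p = 0.00216) and -0.51 ± 0.0624 (adjusted p = 4.3e-05). None of the 50-base words of MYD88 occurs in another annotated gene.

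IRAK4, the kinase that MYD88 recruits first (chromosome 12, 43758944 to 43789543), was lower at 24 h. It had 4101.4, 3533.3 and 4001.8 normalised counts in AU-15330 libraries at 8 h, against 3699.7 and 3511.4 in DMSO libraries, with overlap. After 24 h it had 2619.7, 2862.7 and 3143.4 in AU-15330 libraries, against 3567.4, 3617.1 and 3265.0 in DMSO libraries, without overlap. The log2 fold change was 0.10 at 8 h (95% interval -0.08 to 0.29, adjusted p = 0.335) and -0.27 ± 0.0749 at 24 h (adjusted p = 0.0108).

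IRAK1, the kinase that IRAK4 activates (chromosome X, 154010500 to 154019980), had the highest counts of the 9 genes and moved least among the genes called at 24 h. It had 13248.6, 14457.1 and 12196.8 normalised counts in AU-15330 libraries at 8 h, against 15032.6 and 14169.8 in DMSO libraries, with overlap. By 24 h the gene had 11412.9, 11654.2 and 10508.9 in AU-15330 libraries, against 12678.9, 14005.6 and 12101.6 in DMSO libraries. The log2 fold change was -0.14 at 8 h (95% interval -0.31 to 0.03, adjusted p = 0.173) and -0.21 ± 0.0691 at 24 h (adjusted p = 0.0286). The 24 h call was lost under quantile normalisation (adjusted p = 0.117), on log2(CPM + 1) (0.0866) and log2(CPM + 5) (0.0865), without DMSO replicate 2 (0.117) and without AU-15330 replicate 3 (0.102).

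**Figure D4:**
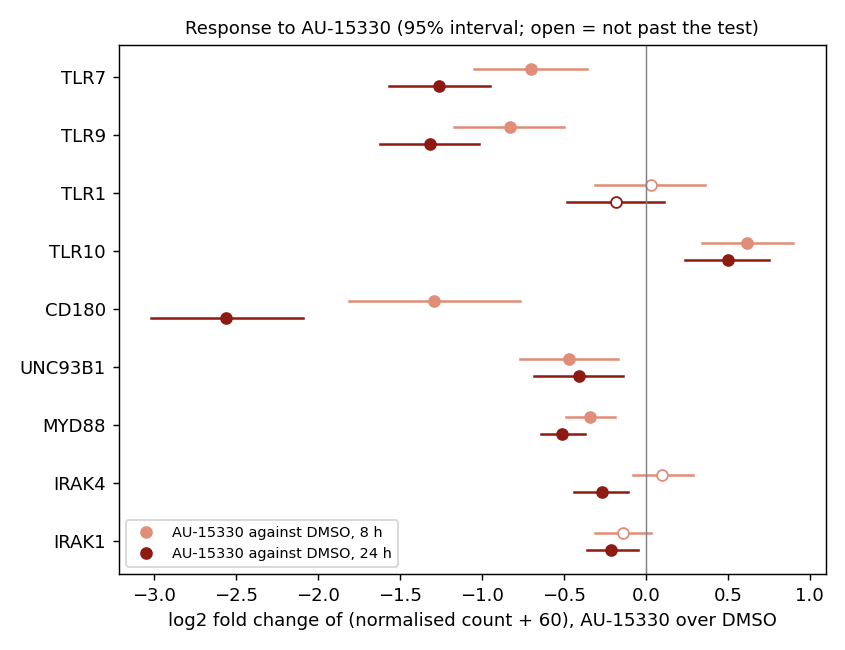
Log2 fold change of AU-15330 over DMSO on log2(normalised count + 60) (x axis) for the 9 genes (rows), at 8 h (light) and 24 h (dark), with 95% intervals from limma. Filled points passed the test on the deposited scale, and open points (TLR1 at both times, IRAK4 and IRAK1 at 8 h) did not. TLR10 is the only gene right of 0 with a filled point, and CD180 at 24 h lies farthest left at -2.56.

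The test of the difference between the 24 h effect and the 8 h effect called 3 of the 9 genes, all lower at 24 h, where 18.5% of all tested genes were called, 11% lower and 7.54% higher. They were CD180 (-1.27 ± 0.318, adjusted p = 0.00478), TLR7 (-0.55 ± 0.212, adjusted p = 0.0363) and IRAK4 (-0.38 ± 0.112, adjusted p = 0.0399). For CD180 this rested on the scale, since the ratios of means were 11.6 and 10.0, and with a pseudocount of 3 the difference was -0.23 ± 0.713 (95% interval -1.8 to 1.34, adjusted p = 0.863). TLR7 did not pass on log2(CPM + 1) (adjusted p = 0.138), on log2(CPM + 5) (0.0954), with a pseudocount of 3 (0.11) or without a filter (0.0514), and leaving out single libraries gave adjusted p-values of 0.00794 to 0.109. IRAK4 likewise did not pass under quantile normalisation (adjusted p = 0.0665), on both CPM scales (0.0724 and 0.0716) or without a filter (0.0571), and leaving out single libraries gave 0.0187 to 0.13. TLR9 did not pass as deposited (-0.49 ± 0.205, adjusted p = 0.0899) and passed with a pseudocount of 3, an added alternative (-1.63 ± 0.384, adjusted p = 0.0153). Its sum with AC097637.1 also passed (-1.28 ± 0.21, adjusted p = 0.00258). AC097637.1 alone gave -1.25 ± 0.208 (adjusted p = 0.00246), so the sum follows that entry. The other 5 genes did not pass, with differences from -0.21 for TLR1 to 0.05 for UNC93B1.

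In DMSO, 4 of the 9 genes were higher at 24 h than at 8 h (CD180, TLR10, TLR7 and TLR1) and none was lower, where 10.1% of all tested genes were called, 6.56% higher and 3.56% lower. TLR9, UNC93B1, MYD88, IRAK4 and IRAK1 did not pass, with log2 differences from -0.18 for IRAK1 to 0.14 for UNC93B1. This comparison and the difference between effects use the same DMSO libraries.

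Per kilobase of merged exons, IRAK1 stood highest and MYD88 next in all 4 groups, with no overlap with the other genes. The mean level of IRAK1 was 2797.3 normalised counts per kilobase in AU-15330 and 3231.4 in DMSO at 24 h, and that of MYD88 was 787.0 and 1123.3. TLR10 and IRAK4 overlapped in AU-15330 at 24 h, with levels of 514.7 to 524.5 and 465.4 to 558.4 per kilobase. In DMSO at 24 h IRAK4 stood apart from TLR10, at 580.0 to 642.6 against 345.2 to 391.2. TLR10 stood above TLR7 in AU-15330 at both times (518.7 against 167.4 at 24 h and 313.3 against 153.0 at 8 h) and below it in DMSO at both times (364.3 against 410.6 at 24 h and 196.4 against 254.4 at 8 h), with no overlap between the genes in any group. UNC93B1, TLR1, TLR9 and CD180 followed. UNC93B1 and TLR1 overlapped in AU-15330 at both times, and CD180 ran from 103.6 to 119.8 per kilobase in DMSO at 24 h, where it overlapped TLR1 at 97.5 to 111.6 and UNC93B1 at 119.2 to 142.7. TLR9 was at 2.71 per kilobase in AU-15330 and 30.3 in DMSO at 24 h, levels that are uncertain because of the overlapping entry.

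The receptor partners and trafficking genes were lower more often than higher at 8 h. Of 25 such genes 21 were tested, and 13 fell and 6 rose at 8 h, while 9 fell and 5 rose at 24 h, with medians of -0.29 and -0.08. Over all tested entries, 21.4% fell and 22.9% rose at 8 h, and 26.2% fell and 24.7% rose at 24 h. Beside LY86, PLD4, a lysosomal nuclease that limits TLR9 ligands, fell by 1.34 (SE 0.101, adjusted p = 6.11e-07) at 8 h and by 1.90 (SE 0.0903, adjusted p = 8.99e-09) at 24 h on the log2 scale. CTSS, a cathepsin that can cleave endosomal receptors, had log2 fold changes of -1.14 ± 0.067 (adjusted p = 2.16e-07) and -1.47 ± 0.0599 (adjusted p = 5.96e-09). Genes named here beyond the rule, chosen after their values were seen, include the chaperones of Toll-like receptor folding HSP90B1 (-0.34 and -0.19) and CNPY3 (-0.43 and -0.42) and the lysosomal protease LGMN (-0.89 and -0.95), each called at both times. LAMP5 (0.49 and 0.63) and PLD3 (0.34 and 0.43) rose at both times, and SLC15A4, a lysosomal transporter needed for TLR7 and TLR9 responses, did not pass (-0.09 and 0.12, adjusted p = 0.413 and 0.186).

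The other Toll-like receptors were mostly too low to test. Of 6, TLR4, the lipopolysaccharide receptor, and TLR6 were tested, TLR2, TLR3 and TLR5 fell below the filter, and TLR8 was not analysed here. TLR4 rose at 8 h, with 208.7 ± 3.89 normalised counts in AU-15330 (SD, n = 3) and 144.2 ± 13.1 in DMSO (SD, n = 2), a log2 fold change of 0.40 ± 0.1 (adjusted p = 0.0112). By 24 h it was lower, with 174.2 ± 16.3 in AU-15330 and 300.1 ± 20.4 in DMSO (SD, n = 3 each), a change of -0.62 ± 0.0898 (adjusted p = 0.000147).

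Downstream of MYD88 and the IRAK kinases, rises and falls were mixed. Of 31 further adaptors and relay genes 29 were tested, and 8 rose and 6 fell at 8 h, while 9 rose and 9 fell at 24 h, with medians of 0.12 and 0.05. These counts lie near the shares over all tested entries, 22.9% higher and 21.4% lower at 8 h and 24.7% and 26.2% at 24 h. PELI2 and PELI3, ubiquitin ligases of the Pellino family that bind IRAK1, had log2 fold changes of -1.23 ± 0.1 (adjusted p = 5.6e-06) and -1.16 ± 0.178 (adjusted p = 0.000557) at 8 h. At 24 h PELI3 was at -1.23 ± 0.159 (adjusted p = 6.41e-05) and PELI2 at -0.33 ± 0.0896 (adjusted p = 0.00801). PELI1, the other Pellino gene on the list, went the other way. It rose by 0.22 ± 0.0629 at 8 h (adjusted p = 0.0178) and by 0.48 ± 0.0563 at 24 h (adjusted p = 1.96e-05). Its mean counts were above those of PELI2 and PELI3 in every group. IKBKE, an IKK-related kinase, was at -1.19 ± 0.0954 at 8 h (adjusted p = 1.55e-06) and -1.21 ± 0.0853 at 24 h (adjusted p = 2.77e-07), and MAP3K8, a MAP kinase activator, was at -0.74 ± 0.129 at 24 h (adjusted p = 0.000702). TRAF6, the ubiquitin ligase next in the relay, averaged 1066 ± 177 normalised counts in AU-15330 and 862.1 ± 16.5 in DMSO at 8 h, and 1080 ± 29.8 and 999.6 ± 96.4 at 24 h, and did not pass (adjusted p = 0.0864 and 0.427). TICAM1, the adaptor of the MYD88-independent branch, rose by 0.38 at 8 h and 0.63 at 24 h on the log2 scale (adjusted p = 0.00122 and 1.3e-05). PELI1, TRAF6 and TICAM1 were named after their values were seen.

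Negative regulators of the pathway were also mixed. Of 20 genes 18 were tested, with 4 higher and 6 lower at 8 h and 5 higher and 7 lower at 24 h, and medians of -0.12 and -0.08. The shares over all tested entries were 22.9% higher and 21.4% lower at 8 h, and 24.7% and 26.2% at 24 h. SOCS1, a suppressor of cytokine signalling, had log2 fold changes of -1.56 ± 0.132 at 8 h (adjusted p = 4.01e-06) and -1.53 ± 0.118 at 24 h (adjusted p = 2.36e-06). ZC3H12A, a ribonuclease that degrades inflammatory mRNAs, changed by -1.44 ± 0.105 (adjusted p = 1.2e-06) and -0.93 ± 0.0943 (adjusted p = 7.5e-06), and NLRC5, which is best known as an activator of MHC class I genes, by -1.42 ± 0.179 (adjusted p = 2.44e-05) and -1.76 ± 0.16 (adjusted p = 1.3e-06).

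Among the transcription factors at the end of the pathway, IRF8 and IRF7 fell and several NF-kappaB subunits rose, while NFKB1 rose at 8 h and fell at 24 h. Of 9 genes, all tested, 5 rose and 2 fell at 8 h and 4 rose and 4 fell at 24 h, with medians of 0.27 and -0.10. Among all tested entries 22.9% rose and 21.4% fell at 8 h, and 24.7% rose and 26.2% fell at 24 h. IRF8, a regulator of B cell and myeloid genes, averaged 229.7 ± 59.6 normalised counts in AU-15330 and 938.4 ± 16.1 in DMSO at 8 h, a log2 fold change of -1.81 ± 0.167 (adjusted p = 5.92e-06). After 24 h IRF8 averaged 231.6 ± 18.2 in AU-15330 and 1110 ± 164 in DMSO, a change of -2.0 ± 0.15 (adjusted p = 4.31e-07). IRF7 fell by 0.65 at 8 h (SE 0.101, adjusted p = 0.000233) and by 1.03 at 24 h (SE 0.0906, adjusted p = 2.78e-06) on the log2 scale, with a value that is uncertain because the symbol has 2 entries. NFKB2, a subunit of the alternative NF-kappaB pathway, rose by 0.55 ± 0.0507 at 8 h (adjusted p = 8.78e-06), and RELB, its partner, by 0.95 ± 0.038 at 24 h (adjusted p = 4.58e-09). NFKB1 was at 0.31 ± 0.0521 at 8 h (adjusted p = 0.00064) and -0.13 ± 0.0466 at 24 h (adjusted p = 0.0339), and was named after its values were seen. IRF5, which acts with MYD88, had a change of -0.03 at 8 h (adjusted p = 0.702) and -0.43 ± 0.0569 at 24 h (adjusted p = 9.11e-05), and was named after its values were seen.

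Genes that B cells induce after Toll-like receptor stimulation were lower more often than higher at both times, in cells to which the labels list no receptor ligand added. Of 25 genes 17 were tested, and 9 fell and 1 rose at 8 h, while 12 fell and 4 rose at 24 h, with medians of -0.39 and -0.97. Of all tested entries, 21.4% fell and 22.9% rose at 8 h, and 26.2% fell and 24.7% rose at 24 h. In DMSO, 9 of the 17 were higher at 24 h than at 8 h and 0 were lower, against 6.56% and 3.56% of all tested entries. The genes that rose were MYC at 8 h (0.35) and NFKBID (0.75), BCL3 (0.42), IER3 (0.71) and BIRC3 (0.68) at 24 h. They were named after their values were seen, and IER3 is uncertain because its symbol has 5 entries. IL10, an anti-inflammatory cytokine, averaged 96.26 ± 15.4 normalised counts in AU-15330 and 722.0 ± 27.9 in DMSO at 8 h, a log2 fold change of -2.33 ± 0.15 (adjusted p = 1.06e-06). At 24 h it averaged 199.5 ± 49.1 in AU-15330 and 2752 ± 242 in DMSO, a change of -3.45 ± 0.134 (adjusted p = 6.34e-10). The costimulatory ligands CD80 (-1.54 ± 0.116, adjusted p = 2.47e-06) and CD86 (-1.20 ± 0.128, adjusted p = 1.16e-05) fell at 8 h, and CD80 was at -1.97 ± 0.104 at 24 h (adjusted p = 6.01e-08). The chemokine CCL3 was at -2.43 ± 0.136 at 24 h (adjusted p = 3.7e-08), with 105.5 ± 27.2 normalised counts in AU-15330 and 829.2 ± 104 in DMSO. At 8 h it did not pass (adjusted p = 0.399), with 22.16 ± 6.13 in AU-15330 and 12.53 ± 0.92 in DMSO. The CCL3 mean was thus higher at 24 h than at 8 h in both treatments, and less so in AU-15330. Its symbol has 3 entries, so its value is uncertain. These genes also respond to other receptors.

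**Figure D5:**
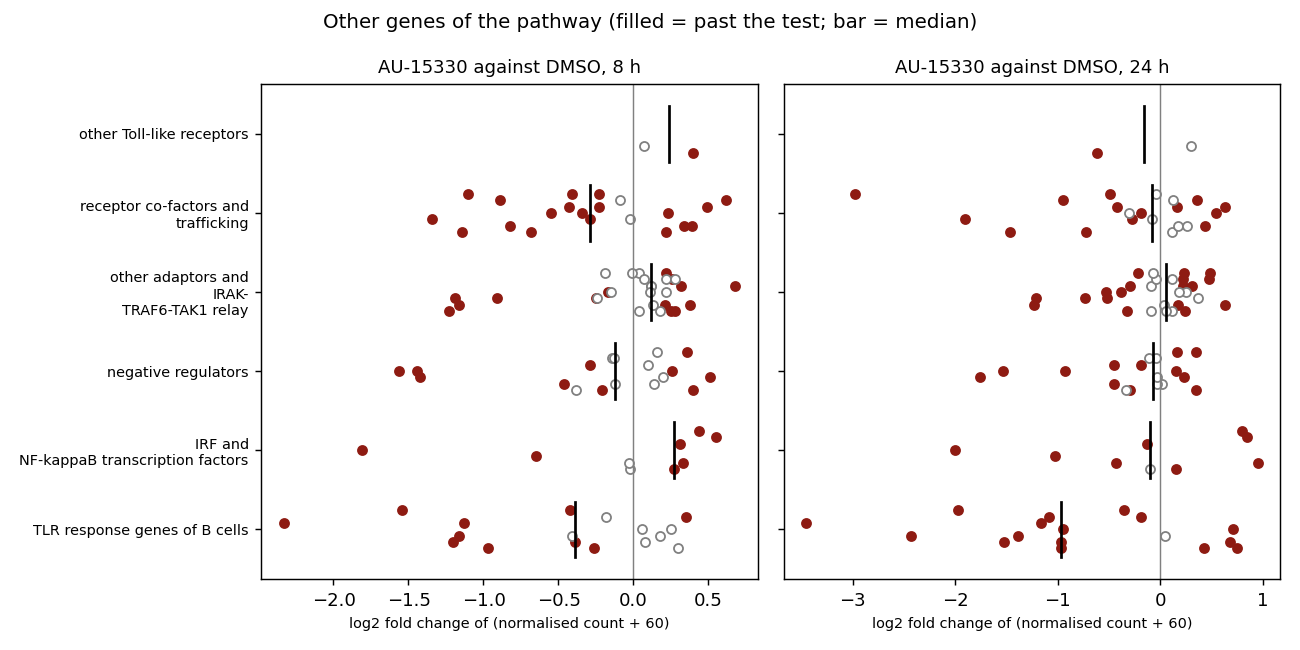
Log2 fold change of AU-15330 over DMSO on log2(normalised count + 60) (x axis, with a range of its own in each panel) for each tested gene (points) of 6 lists around the 9 genes (rows), at 8 h (left) and 24 h (right). Filled points passed the test and bars are list medians, of which the Toll-like receptor response genes have the lowest at both times, -0.39 and -0.97.

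B cell identity genes moved in the same direction as the falling receptors. Of the 9 B cell markers, 8 fell at 8 h and 9 at 24 h, with median log2 fold changes of -1.48 and -1.75. Across all tested entries, 21.4% were called lower at 8 h and 26.2% at 24 h. The largest falls among the markers were those of VPREB3 (-1.75 ± 0.107 at 8 h and -3.24 ± 0.0957 at 24 h), CD22, an inhibitory receptor (-1.53 ± 0.15 and -2.42 ± 0.134), and CD79B, a subunit of the antigen receptor (-1.63 ± 0.0743 and -2.23 ± 0.0665). Their adjusted p-values were 2.7e-07, 0.00017 and 2.02e-08 at 8 h and 1.16e-09, 5.62e-07 and 3.74e-10 at 24 h. Markers of other cell types summed to lower levels. The 6 of 10 myeloid markers with an entry summed to 2.52 to 3.57 CPM in AU-15330 and 1.95 to 2.39 CPM in DMSO at 8 h, and to 3.52 to 4.54 and 1.97 to 2.5 CPM at 24 h, with CD14 at a mean of 4.5 normalised counts or less in each group. CD68, a lysosomal protein and the 1 myeloid marker tested, did not pass at 8 h (adjusted p = 0.109) and rose at 24 h, with 211.5 ± 28.4 normalised counts in AU-15330 and 71.53 ± 5.88 in DMSO, a log2 fold change of 1.04 ± 0.108 (adjusted p = 1.57e-05). The 4 of 6 plasmacytoid dendritic cell markers summed to 91.0 to 121 CPM in AU-15330 and 119 to 126 CPM in DMSO at 8 h, and to 110 to 133 and 116 to 157 CPM at 24 h, nearly all of it TCF4, which B cells express, while the defining marker CLEC4C averaged 2.9 normalised counts or less. IL3RA, the interleukin-3 receptor alpha chain, also rose at 24 h, with 183.7 ± 33.5 normalised counts in AU-15330 and 53.05 ± 12 in DMSO, a log2 fold change of 1.10 ± 0.128 (adjusted p = 2.96e-05). The 5 of 6 T cell markers summed to 4.36 to 5.78 CPM in AU-15330 and 13.5 to 13.6 CPM in DMSO at 8 h, and to 2.08 to 2.5 and 13.4 to 14.3 CPM at 24 h. Most of that was CD3G, with log2 fold changes of -1.17 and -2.33 (adjusted p = 6.46e-06 and 1.75e-08), while CD3D averaged 6.6 normalised counts or less. CD3E, which was not tested, averaged 9.6 in AU-15330 and 49.9 in DMSO at 8 h, and 1.2 and 66.7 at 24 h. Also untested, TRAC averaged 14.1 in AU-15330 and 30.1 in DMSO at 24 h, and CD8A 20.2 and 16.2. The part of these shifts in the results above was not tested.

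Across the 11 libraries, the genes whose deposited values were most like each member are given as a description, since all points share the same 4 groups. For CD180 they were SSR3 (Pearson's r = 0.988) and HVCN1 (0.986), for TLR7 GPR18 (0.977) and LAPTM5 (0.975), and for TLR9 HNRNPA1L2 (0.983) and VPREB3 (0.981). For TLR10 they were CDS2 (0.962) and EIF3E (0.957), and for TLR1 KMO (0.961) and LMO3 (0.933). For MYD88 they were IVD (0.984) and CANX (0.981), for UNC93B1 NECAP2 (0.964) and PSEN2 (0.95), for IRAK4 RPRD1A (0.951) and PCYOX1L (0.948), and for IRAK1 KIAA0586 (0.934) and SUSD6 (0.929). VPREB3 is itself one of the B cell markers.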

How the data were processed

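RNA of Z138 cells was extracted with RNeasy Plus, made into libraries with 1 of 2 TruSeq kits (the labels do not assign kits to samples) and read on a NextSeq2000 at 50 bp, per the labels' protocols. The submitters' processing notes name the build GRCh38.p13 and kallisto 0.46.1, with Trimmomatic 0.40 and, under R 4.3.2, DESeq2 1.24.0. The authors deposited 1 table of log2 values. From the values, these were taken to be variance-stabilised normalised counts and not log CPM, because the lowest value was 10.36 in every library. On that reading the transform was inverted from the lowest value to give normalised counts and CPM. All normalised counts, CPM and ratios of means given here depend on it. Whole counts, to within 0.02, made up 53.7% to 56.0% of the values that were at most 20 counts, so whole reads were not recovered and no count test was run. Of 12 value columns, 1 (an identical copy) was not used. Therefore 11 libraries entered, where the planned design had 12.

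Tests took the entries that reached 1 CPM in 3 or more libraries and used limma 3.58.1 in R 4.3.3, with 1 mean per group, a mean-dependent variance prior and Benjamini-Hochberg adjustment. Folds are limma estimates on log2(normalised count + 60). The procedure was also run on simulated data, and no result given here rests on that run. Alternatives were other scalings, scales, filters, variance priors, fits within the compared groups, a replicate block and leaving out each library. Named genes were the 9 members, TLR6, for each list the 3 largest called folds at each time, and for each member the 2 genes most like it. Members and lists were chosen with earlier results of these data known. Coordinates and shared sequence come from GENCODE 29. Tables and figures used Matplotlib 3.10.9, NumPy 2.4.6 and pandas 2.3.3 in Python 3.11.15.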

Additional observations from a re-analysis of the deposited data

Results flagged for a closer look

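For 3 genes the effect of AU-15330 at 24 h differed from that at 8 h by the limma test of the difference itself, on the deposited scale. On log2(normalised count + 60) the difference was -1.27 (SE 0.318) for CD180, -0.55 (SE 0.212) for TLR7 and -0.38 (SE 0.112) for IRAK4. The adjusted p-values of the test were 0.00478, 0.0363 and 0.0399. At each time every AU-15330 library of CD180 and TLR7 (6 of 6) was below the DMSO libraries of that time. IRAK4 overlapped between the groups at 8 h and was lower in 3 of 3 AU-15330 libraries at 24 h. The CD180 difference was -0.23 with a pseudocount of 3 (adjusted p = 0.863). TLR7 and IRAK4 did not pass on log2(CPM + 1), on log2(CPM + 5) or without a filter. Groups of 2 or 3 libraries are too small for the check of single libraries that stand apart, so none was run.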

How the results depend on the processing

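Among alternatives that kept all 11 libraries, the number of the 9 genes called stayed within 1.5 times of that reported, except in the difference between the times. There, 3 genes were called, and 1 was called on log2(CPM + 1), 1 on log2(CPM + 5) and 1 without a filter. Leaving out each library in turn gave 1 to 3 genes for that difference, 2 to 4 for DMSO at 24 h against 8 h (4 reported), 5 to 6 for AU-15330 at 8 h (6 reported) and 7 to 8 at 24 h (8 reported). Over all genes it gave 1571 to 2414 calls for the difference (2358 reported, 1571 without the second DMSO library at 8 h), and 661 to 1355 for DMSO over time (1287 reported, 688 without DMSO replicate 1 at 8 h, 661 without the second DMSO library and 851 without DMSO replicate 1 at 24 h). Under a filter of 5 CPM, TLR9 was not tested. A fit within the compared groups gives no value for the difference between times, and no symbol of the 9 genes repeats, so the planned choice among repeated entries gave nothing.

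Directions turned only in comparisons that did not pass the test. On the deposited scale or that of the alternative, the difference between times became -0.0083 for UNC93B1 and 0.0407 for IRAK1 with quantile normalisation, 0.00189 for TLR10 with library medians centred, and -0.03 for UNC93B1 summed with its copies. TLR9 in DMSO at 24 h against 8 h became -0.0032 with medians centred, -3.1e-06 on log2(CPM + 1), -0.00251 on log2(CPM + 5) and -0.14 summed with AC097637.1. Leaving out single libraries gave -0.0246 to 0.0542 for TLR1 at 8 h, -0.0816 to 0.0457 and -0.0128 to 0.0463 for the differences of TLR10 and UNC93B1, and -0.0469 to 0.0548 and -0.00369 to 0.128 for TLR9 and MYD88 in DMSO over time. The cause was not tested.

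The deviations of same-numbered AU-15330 and DMSO libraries correlated at 0.041, 0.03 and 0.045 at 24 h and -0.025 at 8 h. These values cannot show whether replicate numbers pair the libraries, since differently numbered libraries were not set beside them. With the replicate number as a block, 6 or 7 of the 9 genes were called at 8 h, 8 at 24 h, 2 in the difference and 4 or 5 in DMSO over time, depending on whether the second DMSO library was taken as replicate 2 or 3. As replicate 2, the block gave -0.00414 for TLR1 at 8 h, and 0.00418 and -0.00578 for the differences of TLR10 and UNC93B1. As replicate 3, limma with the block called IRAK1 lower at 8 h (adjusted p = 0.00366) and in DMSO over time (adjusted p = 0.00801). Low counts limit CD180 and TLR9, which had 5.7 to 112.6 and 9.9 to 42.6 normalised counts in AU-15330 libraries. For TLR9 the counts also depend on how reads shared with AC097637.1 were divided, which was not tested.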
